A study of Mus musculus with 18 samples.

Results

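Hypothalamic control of the anterior pituitary was followed through 7 genes across the axis: the peptide genes Trh, Ghrh and Sst, and the dopamine genes Th, Ddc, Slc6a3 and Slc18a2. They were chosen by symbol, each was named alone by exactly 1 transcript cluster of the array, and all 7 were measured, of 22180 genes in all. RNA was profiled on 18 Affymetrix Mouse Gene 2.0 ST arrays from hypothalamus, pituitary gland and ovary of female mice of the strain labelled BABL/c. From 10 littermate pairs, a control group and a stress group were formed, and the latter was stressed by transport. The labels give 1000 km, close to 10 h and a mean of 50 km/h, which do not match one another. Every mouse, control or stressed, was superovulated at 9 weeks of age, so no group shows the axis without exogenous stimulation. For each tissue and treatment there were 3 samples: the mouse that ovulated the most oocytes (high class), the mouse that ovulated the fewest (low class) and a pool of 8 other mice (pool class). A group therefore held 2 single mice picked as extremes and a mixture, and its p-values measure the spread among these 3. Below, the high pair and the low pair are the control and stressed mouse of a class, which are not labelled as littermates.

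The hypothalamus speaks to the anterior pituitary through factors released into portal blood. Thyrotropin-releasing hormone (Trh), made by paraventricular neurons, drives thyrotropin and also prolactin. Growth hormone-releasing hormone (Ghrh), from the arcuate nucleus, and somatostatin (Sst), from the periventricular nucleus, raise and lower growth hormone. Dopamine from tuberoinfundibular neurons of the arcuate nucleus holds prolactin down through the D2 receptor. Tyrosine hydroxylase (Th) makes L-DOPA in the rate-limiting step, aromatic amino acid decarboxylase (Ddc) turns it into dopamine, the vesicular monoamine transporter VMAT2 (Slc18a2) loads it into vesicles, and the plasma membrane dopamine transporter DAT (Slc6a3) takes it back up. Ddc and Slc18a2 also serve serotonin neurons, and Slc18a2 serves histamine cells.

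All 7 genes had a promoter window (250 bases before to 50 after an annotated start, RefSeq, GRCm38.p6). The palindromic cAMP response element TGACGTCA lay close to the starts of Sst, Th and Slc18a2, 3 of the 7 genes. Among all 27025 genes with a window, 2.03% held this element. Trh held TGACCTCA, a version with 1 base changed, which on either strand (TGAGGTCA on the other) occurred in 2.4% of genes and does not overlap the first motif. The stretches around these sites are shown because they are a feature that part of the group shares and the choice of genes did not use. The capitals mark the motif.
Sst, chr16:23890859-23890918, minus strand: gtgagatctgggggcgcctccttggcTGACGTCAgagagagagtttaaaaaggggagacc
Th, chr7:142900007-142900066, minus strand: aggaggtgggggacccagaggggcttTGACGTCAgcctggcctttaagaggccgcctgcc
Slc18a2, chr19:59260848-59260881, plus strand: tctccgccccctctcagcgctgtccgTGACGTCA
Trh, chr6:92244674-92244733, minus strand: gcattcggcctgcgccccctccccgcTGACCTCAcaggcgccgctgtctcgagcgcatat
The motif began 48 bases before the start in Sst, 45 in Th, 57 in Trh and 4 in Slc18a2. Neither motif was in the windows of Ghrh, Ddc or Slc6a3. Another motif, TATAAA, was also sought on either strand and lay in windows of Ghrh and Ddc, as in 15.7% of all genes. The motifs were picked by hand, so these counts are a description and not a test. A match describes these letters, and the arrays did not measure binding there.

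Marker genes placed the arrays in their labelled tissues, with exceptions among the pools and some single hypothalami. All 7 pituitary hormone genes were lower in hypothalamus than in pituitary and all 8 ovarian genes lower in hypothalamus than in ovary, each past the threshold of the limma fit (adjusted p under 0.05). Of 10 measured genes of other hypothalamic neurons, 8 were higher in hypothalamus than in pituitary, and Pomc and Gal, which pituitary cells also make, were lower. The stressed hypothalamus pool read 10.52 for the ovarian steroid gene Cyp11a1, against 4.10 to 6.99 in single-mouse hypothalami, and the stressed pituitary pool read 11.34 against 3.51 to 5.31. Both ovary pools carried the pituitary gene Prl at 10.82 to 11.44, against 3.63 to 5.09 in single mice. The members' differences without all pool arrays are therefore given beside those with them. Single hypothalami also varied in pituitary genes, which leaving out the pools does not remove. Stress minus control was 3.14 and -2.71 for Prl, and 2.14 and -1.99 for Gh, in the high and low classes.

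The 3 peptide genes were hypothalamic. Trh read 9.87, 9.94 and 10.27 (log2 signal; high, low and pool) in control hypothalamus and 10.30, 9.82 and 10.22 in stressed hypothalamus. In pituitary it read 3.98 to 6.92 and in ovary 4.57 to 4.90, so the hypothalamus arrays stood wholly apart from both tissues. Hypothalamus exceeded pituitary by 5.01 ± 0.27 (log2 difference ± SE; 32.2-fold in signal; limma, adjusted p = 3.75e-11) and ovary by 5.34 ± 0.27 (40.5-fold, adjusted p = 3.82e-12).

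Sst, the inhibitor of growth hormone, read 12.14, 11.88 and 11.60 in control hypothalamus and 11.65, 11.78 and 11.42 in stressed hypothalamus. It read 5.31 to 6.32 in pituitary and 5.49 to 6.41 in ovary. Its tissue differences were 5.78 ± 0.17 against pituitary (54.8-fold, limma, adjusted p = 1.81e-14) and 5.78 ± 0.17 against ovary (55.0-fold, adjusted p = 3.48e-15). Pituitary and ovary overlapped for Sst. Ghrh was the peptide gene with the smallest tissue difference. It read 6.23, 5.84 and 7.24 in control hypothalamus and 6.02, 5.57 and 7.37 in stressed hypothalamus, against 4.45 to 4.78 in pituitary and 4.23 to 4.94 in ovary. Every hypothalamus array lay above every other array, and the differences were 1.77 ± 0.23 (3.41-fold, limma, adjusted p = 4.18e-06) and 1.70 ± 0.23 (3.25-fold, adjusted p = 3.99e-06).

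Of the dopamine genes, Th showed the widest gap between tissues. It read 8.98, 8.62 and 9.08 in control hypothalamus and 9.58, 9.69 and 8.87 in stressed hypothalamus, against 3.98 to 7.002 in pituitary and 4.81 to 5.26 in ovary. The differences were 3.78 ± 0.30 against pituitary (13.7-fold, limma, adjusted p = 5.43e-09) and 4.16 ± 0.30 against ovary (17.9-fold, adjusted p = 5.30e-10). Ddc, the second enzyme of the path, read 6.29, 6.62 and 6.71 in control and 6.88, 6.86 and 6.75 in stressed hypothalamus. Its range was 4.60 to 5.34 in pituitary and 4.08 to 4.83 in ovary, with differences of 1.74 ± 0.15 (3.34-fold, limma, adjusted p = 1.46e-08) and 2.11 ± 0.15 (4.32-fold, adjusted p = 3.82e-10).

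The transporters departed from this pattern in different ways. Slc6a3 read 6.12, 5.86 and 8.31 in control hypothalamus and 8.09, 8.68 and 7.50 in stressed hypothalamus, against 5.33 to 5.96 in pituitary and 4.80 to 5.43 in ovary. The control high and low mice thus read close to the pituitary arrays, and the control low mouse lay inside their range, while the other 4 hypothalamus arrays lay well above. The mean differences were 1.89 ± 0.29 against pituitary (3.72-fold, limma, adjusted p = 2.69e-05) and 2.35 ± 0.29 against ovary (5.10-fold, adjusted p = 1.11e-06). Slc18a2 read 6.89, 7.23 and 8.06 in control and 7.05, 7.93 and 7.78 in stressed hypothalamus. In ovary it read 7.62, 6.63 and 7.88 in control and 7.05, 7.58 and 7.92 in stressed samples, a range that overlapped the hypothalamic one. Hypothalamus minus ovary was 0.044 (95% confidence interval -0.48 to 0.57; limma, adjusted p = 0.910; the sign turned to -0.039 with arrays centred on their median). In pituitary Slc18a2 read 4.49 to 6.31, lower than hypothalamus by 1.92 ± 0.25 (3.77-fold, adjusted p = 4.04e-06).

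**Figure D1:**
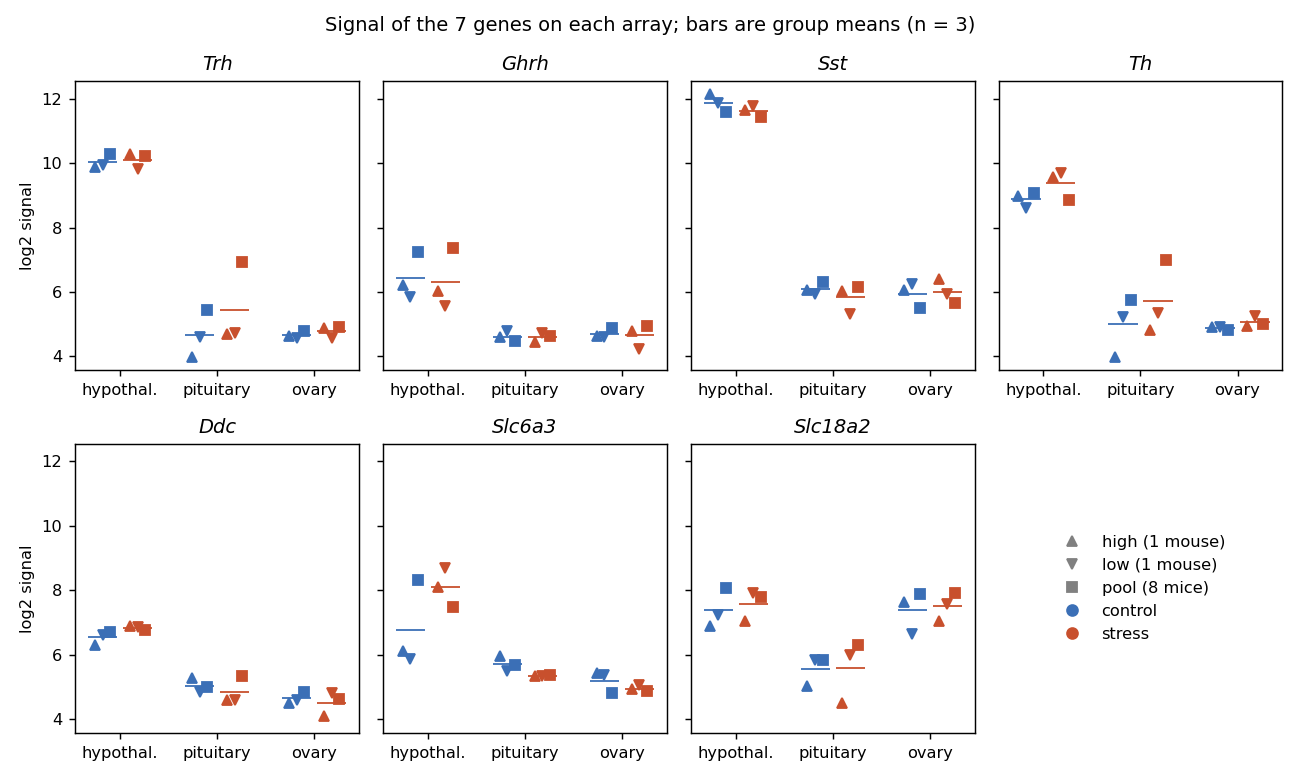
Log2 signal (y axis) of each of the 7 genes on all 18 arrays, by tissue (x axis); blue is control, red is stress, the marker gives the ovulation class and bars are means of 3 arrays. Sst, Trh and Th stand far above the other tissues in hypothalamus, Slc18a2 is as high in ovary as in hypothalamus, and Slc6a3 ranges from 5.86 to 8.68 in hypothalamus.

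In the limma fit over 18 arrays, with mouse or pool as a random block, all 7 genes were higher in hypothalamus than in pituitary, where 39.5% of all genes were called, 19.6% as higher and 19.9% as lower (45.9% were at an unadjusted p under 0.05). In hypothalamus against ovary, 6 of 7 were called higher, where 47.2% of all genes were called, 21.5% as higher and 25.7% as lower (51.5% at an unadjusted p under 0.05). All 6 hypothalamus arrays lay above all 6 pituitary arrays for every member except Slc6a3, as for 11.5% of all genes, and above all 6 ovary arrays for every member except Slc18a2, as for 15.4% of all genes. Without the pool arrays the same counts of 7 and 6 were called. The differences then ran from 1.28 for Ghrh to 6.03 for Sst against pituitary, and from 0.054 for Slc18a2 to 5.70 for Sst against ovary. Pituitary and ovary overlapped for 6 of the 7. For Slc18a2, hypothalamus and ovary overlapped and pituitary lay below both.

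**Figure D2:**
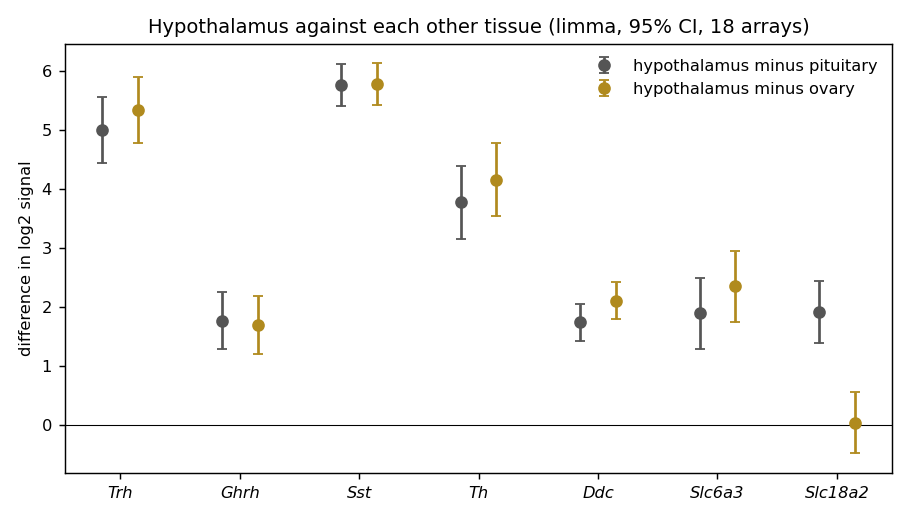
Difference in log2 signal (y axis) of hypothalamus against pituitary (grey) and against ovary (ochre) for the 7 genes, with limma 95% confidence intervals over 18 arrays. The interval of Slc18a2 against ovary, -0.48 to 0.57, is the only one that spans 0.

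The series asked which genes transport stress altered. In hypothalamus none of the 7 genes passed in the limma comparison of 3 stress with 3 control arrays, nor did any of the 22180 genes (0%; 1.1% were at an unadjusted p under 0.05, and 0 of the 7). The lowest adjusted p of any gene was 0.99998, so every difference below failed the threshold. Of the 7 genes, 5 were higher on average under stress and 2 lower, with a median difference of 0.19 against -0.02 over all genes. In such bulk samples, fewer cells of a type and less RNA per cell cannot be told apart.

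Slc6a3 had the largest difference among the 7. The control mean was 6.76 ± 1.34 (SD, n = 3) and the stress mean 8.09 ± 0.59 (SD, n = 3), a log2 difference of 1.33 (95% confidence interval -0.01 to 2.66; limma, unadjusted p = 0.0516, adjusted p = 0.99998). Split by class, the high pair gave 1.97, the low pair 2.82 and the pools -0.81. Both single stressed mice lay above both single control mice, and the control pool lay above the stressed pool. Without the pool arrays the difference was 2.39 (adjusted p = 0.424). When single arrays were left out it ran from 0.87 to 2.10, highest without the control pool. The range of Slc6a3 over the 6 arrays, 2.82, was larger than that of 99.7% of genes.

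Th followed the same order of classes. The control mean was 8.89 ± 0.24 (SD, n = 3) and the stress mean 9.38 ± 0.45 (SD, n = 3), a difference of 0.49 (95% confidence interval -0.10 to 1.08). The high pair gave 0.61, the low pair 1.07 and the pools -0.21. The difference was 0.84 without the pool arrays. When single arrays were left out it ran from 0.33 to 0.75, highest without the stressed pool. Slc18a2 showed 0.16, 0.70 and -0.28 in the high, low and pool classes, with a mean of 0.19 (-0.58 to 0.96), or 0.43 without the pool arrays. Its groups overlapped, and it read 6.63 to 7.92 in ovary.

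Ddc was the only one of the 7 whose hypothalamus groups did not overlap, with control arrays up to 6.71 and stressed arrays from 6.75. Over all genes, 1.94% had all stress arrays above all controls and 2.6% had them below. The mean difference of Ddc was 0.29 (95% confidence interval -0.15 to 0.73), made up of 0.59, 0.23 and 0.05 in the high, low and pool classes. The gap between the groups was thus set by the pools, which differed by only 0.05, and without the pool arrays the difference was 0.41.

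The peptide genes differed less. For Sst the control mean was 11.88 ± 0.27 (SD, n = 3) and the stress mean 11.62 ± 0.18 (SD, n = 3), a difference of -0.26 (95% confidence interval -0.74 to 0.22). It was lower in each class, by -0.50, -0.10 and -0.18 in the high, low and pool classes, although the groups overlapped. Trh differed by 0.08 (-0.40 to 0.57), with 0.42 between the high mice and -0.12 and -0.06 in the low and pool classes. Ghrh differed by -0.12 (-1.22 to 0.98), and its sign turned when the control pool, the stressed high mouse or the stressed low mouse was left out (0.28, 0.03 and 0.26). Without the pool arrays the differences were 0.15 for Trh, -0.24 for Ghrh and -0.30 for Sst.

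**Figure D3:**
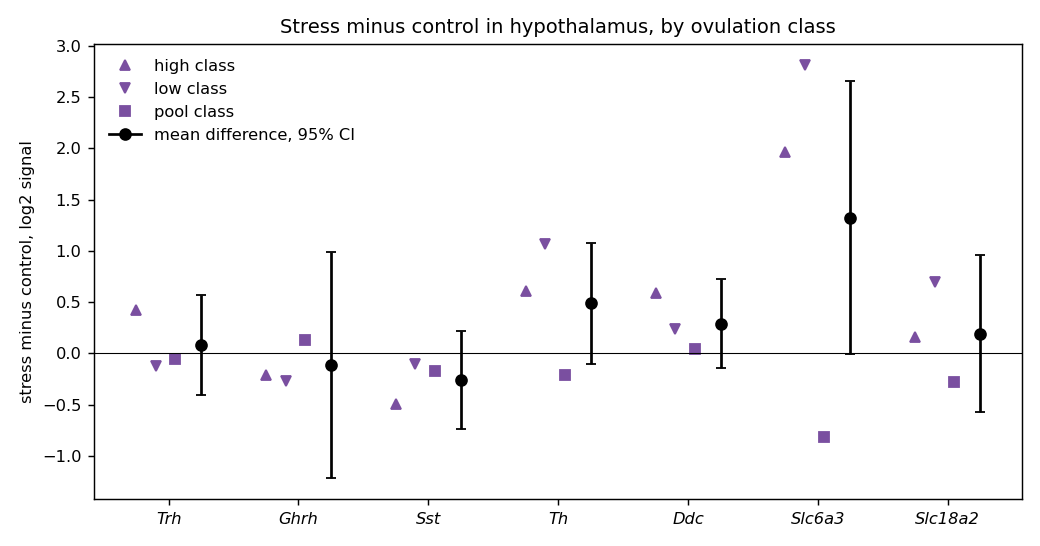
Stress minus control in hypothalamus (y axis, log2 signal) for the 7 genes; purple markers give the difference within each ovulation class and black points the mean with its limma 95% confidence interval. Slc6a3 and Th are positive in the high and low classes (1.97 and 2.82, 0.61 and 1.07) and negative between the pools (-0.81 and -0.21).

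Some markers of neighbouring forebrain read lower under stress in the same single mice. Of 11 measured thalamic, cortical and striatal genes, 8 were lower and 3 higher under stress in hypothalamus, with a median of -0.24 against -0.02 over all genes, and 0 passed. Within the classes, 8 of the 11 were lower in the high pair, 5 in the low pair and 5 in the pools. The 4 of smallest p were negative in both single pairs and positive in the pools. The thalamic genes Tcf7l2 and Prkcd differed by -0.77 and -0.94, and the glutamate transporter gene Slc17a7 by -0.71. In the high pair these values were -1.53, -1.76 and -0.87, in the low pair -0.87, -1.23 and -1.33, and in the pools 0.09, 0.17 and 0.07. The mean log2 level of the list ran from 6.50 to 6.77 in control and from 6.04 to 6.47 in stressed hypothalamus, lowest in the stressed high mouse. Other genes of the list went the other way: Lhx2 differed by 0.23 and 0.26 in the high and low pairs and by -0.21 in the pools, and Emx1 by 0.43, 0.064 and -0.31. Lhx2 and Emx1 were picked after their values were seen. The part of neighbouring tissue in the dopamine gene values was not tested.

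Genes of other monoamine neurons, except Hdc, gave little signal to set beside this. The noradrenergic gene Dbh had hypothalamic readings of 3.54 to 4.05 and pituitary readings of 3.84 to 5.06. Those of the serotonergic gene Tph2 were 3.22 to 3.96 and 3.03 to 3.86. Slc6a4, the serotonin transporter, gave 0.84 in the high pair, 0.86 in the low pair and -0.14 in the pools, but its hypothalamic readings of 3.65 to 4.51 lay at those of pituitary (3.46 to 4.45). Hdc, the histamine enzyme, was higher in hypothalamus than in pituitary by 1.32, lower than in ovary by -1.54, and differed by 0.15 under stress. Of 7 measured genes, 6 were higher under stress and 1 lower (median 0.15), and 0 passed.

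Transcription factors and receptors of dopamine neurons gave differences of both signs. Of 13 measured, 7 were higher and 6 lower under stress in hypothalamus (median 0.02), and 0 passed. Within the classes, 11 of the 13 were higher in the high pair, 7 in the low pair and 5 in the pools. En1, a midbrain dopamine neuron factor, differed by 0.36 (0.52, 0.35 and 0.22 in the high, low and pool classes), Foxa2 by 0.21, Etv1 by -0.31 and Gfra1 by -0.17. En1 read 4.31 to 5.0003 in hypothalamus against 3.82 to 4.82 in pituitary. Pitx3, a factor of midbrain dopamine neurons, read 4.67 to 4.97 in hypothalamus, within the 4.35 to 5.64 of pituitary. Other genes of the list differed more between these tissues. Of the 13, 7 were called higher in hypothalamus than in pituitary and 2 lower, against 19.6% and 19.9% of all genes. The differences ran from -1.40 to 2.13.

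**Figure D4:**
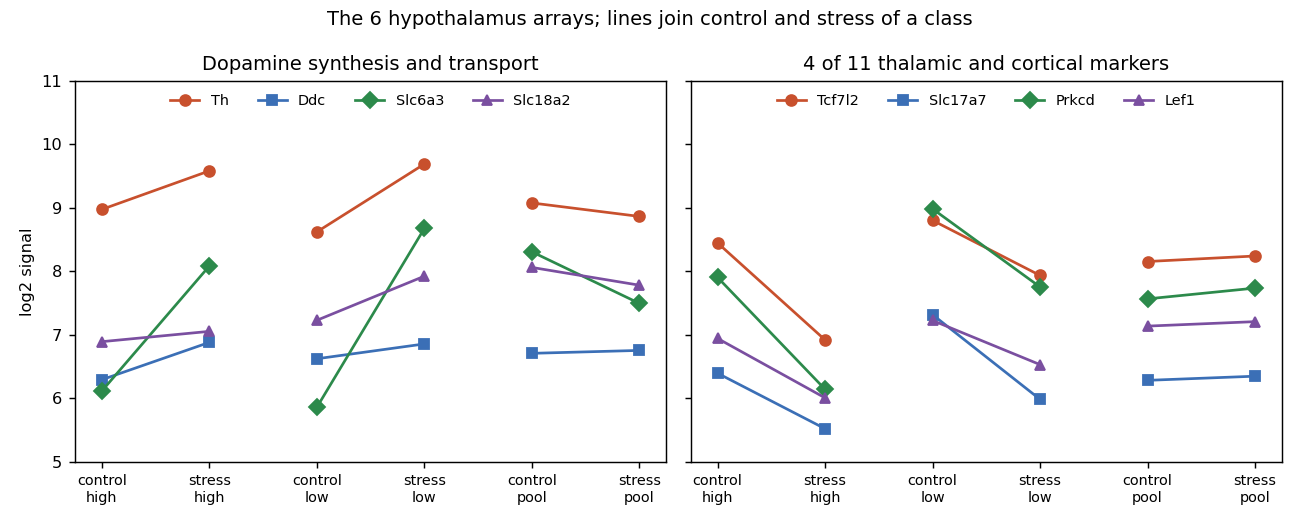
Log2 signal (y axis) on the 6 hypothalamus arrays (x axis), with lines joining control and stress of each class, for 4 dopamine genes (left) and the 4 of 11 forebrain markers with the smallest p (right). Slc6a3 reads 6.12 and 8.09 in the high pair, 5.86 and 8.68 in the low pair and 8.31 and 7.50 in the pools, while these 4 markers are lower in stressed than control single mice and differ by 0.07 to 0.17 between pools; other genes of that list, such as Lhx2, do not share this.

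Whether a stress difference was particular to a tissue was tested as an interaction on all 18 arrays. None of the 7 genes passed, nor did any gene (0%; 3.49% were at an unadjusted p under 0.05 against pituitary and 2.24% against ovary). The stress difference of Slc6a3 in hypothalamus exceeded that in pituitary by 1.70 (95% confidence interval 0.48 to 2.91; limma, unadjusted p = 0.00877, adjusted p = 0.99997) and that in ovary by 1.57 (0.36 to 2.79; unadjusted p = 0.0140, adjusted p = 1). These comparisons share the hypothalamus arrays. Without the pool arrays they were 2.79 (adjusted p = 0.0310) and 2.80 (adjusted p = 0.0298), and Slc6a3 was then the 1 gene of 22180 that passed in each. Without the control hypothalamus pool alone it was again the 1 gene that passed (2.52, adjusted p = 0.0175, and 2.39, adjusted p = 0.0342). The result at the threshold thus turns on 1 array, and for the other genes of the 7 the unadjusted p was at least 0.117.

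In pituitary none of the 7 genes passed for stress minus control, nor did any gene (0%; 1.33% at an unadjusted p under 0.05). The largest differences were those of Trh and Th. Trh read 3.98, 4.61 and 5.44 in control and 4.68, 4.73 and 6.92 in stressed pituitary, and Th read 3.98, 5.24 and 5.75 in control and 4.82, 5.34 and 7.002 in stressed pituitary. The stressed pool was the highest array for both genes and the control pool the next. Their stress differences were 0.77 (95% confidence interval -0.64 to 2.17) and 0.73 (-0.67 to 2.12). In the high, low and pool classes Trh differed by 0.70, 0.11 and 1.48, and Th by 0.83, 0.11 and 1.25. Without the stressed pool, but with the control pool kept, the differences were 0.03 and 0.09. Without all pool arrays they were 0.41 and 0.47.

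Several other brain genes were highest in the same pool, but few from the list of hypothalamic neurons. Of that list 1 of 10 genes was highest of the 6 pituitary arrays in the stressed pool and 4 of 10 in the control pool, against 16.2% and 23.6% of all genes. In the stressed pool 5 of 7 glial genes, 4 of 5 genes of fast transmitters, 5 of 11 neighbouring forebrain genes and 6 of 8 ovarian genes were highest. Slc17a7 read 8.20 there and 5.46 to 6.08 elsewhere in pituitary. Calb2, a neuronal calcium-binding protein gene from the forebrain list, read 8.46 there, against 5.19 in the pool of controls, and the 4 single pituitaries gave 3.39 to 3.74. Npy, a feeding peptide gene, read 8.41 there and no more than 5.92 elsewhere in pituitary. Trhde, which encodes the ectoenzyme that degrades TRH, read 5.25 there and 3.49 to 3.95 on the other 5 arrays. Pmch, another hypothalamic peptide gene, read 3.60 there, but 6.67 in the control pool, against 3.80 to 4.30 in single mice. Calb2, Npy and Trhde were picked after their values were seen. Among the 7 genes, Ddc (5.34) and Slc18a2 (6.31) were also highest in the stressed pool. This made 3 of the 4 dopamine genes and 1 of the 3 peptide genes, against 16.2% of all genes. Sst and Ghrh did not follow Trh and Th in the stressed pool: Sst read 6.16 there and 6.32 in the control pool, and Ghrh 4.64 and 4.47. Both pools lay above all 4 single mice in pituitary for 3 of the 7 genes (Trh, Sst and Th), against 24.4% of all genes, and below them for none (18.7% of all genes). The part of brain or ovarian tissue in these pituitary values was not tested.

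**Figure D5:**
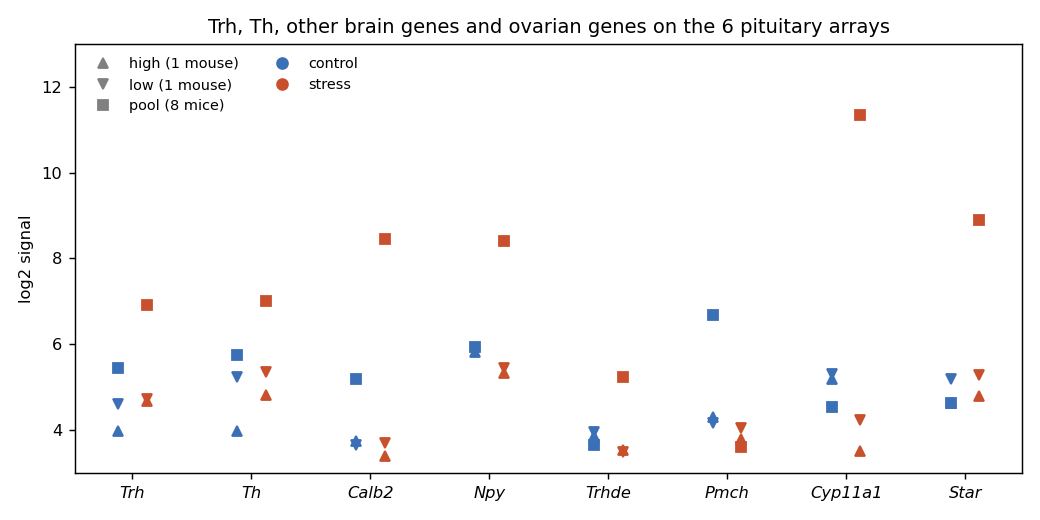
Log2 signal (y axis) of Trh, Th, other brain genes and the ovarian genes Cyp11a1 and Star on the 6 pituitary arrays; blue is control, red is stress, squares are pools. The stressed pool reads 6.92 for Trh, 7.002 for Th and 11.34 for Cyp11a1, above every other pituitary array. Calb2, Npy, Trhde, Cyp11a1 and Star were picked after their values were seen. Of 10 measured genes of hypothalamic neurons, 1 was highest in this pool.

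The remaining genes were low in pituitary. Slc6a3 read 5.96, 5.50 and 5.69 in control and 5.33, 5.34 and 5.36 in stressed pituitary. Its groups did not overlap, with a difference of -0.37 (95% confidence interval -0.86 to 0.12; -0.40 without the pool arrays). All stress arrays lay below all controls for 3.68% of all genes, and above them for 2.4%. Sst differed by -0.27 (-0.33 without the pool arrays, -0.012 without the stressed low mouse). Ddc differed by -0.19 (-0.46 without the pool arrays, and -0.44 to -0.068 when single arrays were left out). Ghrh differed by -0.01 and Slc18a2 by 0.03 (-0.097 and -0.19 without the pool arrays).

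In ovary none of the 7 genes passed for stress minus control, nor did any gene (0%; 2.67% at an unadjusted p under 0.05). The 7 differences ran from -0.25 for Slc6a3 to 0.18 for Th, and without the pool arrays from -0.40 for Slc6a3 to 0.19 for Slc18a2. Th read 4.92, 4.92 and 4.81 in control and 4.94, 5.26 and 4.99 in stressed ovary, groups that did not overlap but spanned little (4.71% of all genes had all stress arrays above all controls, and 4.07% below). Slc18a2, the only one of the 7 as high in ovary as in hypothalamus, differed by 0.14 (95% confidence interval -0.65 to 0.92), with -0.57, 0.94 and 0.04 in the high, low and pool classes. Both ovary pools lay above all single mice for Ghrh and Slc18a2 (20.9% of all genes) and below them for Sst and Slc6a3 (16.2%).

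Of the 7 genes, only Ghrh had both hypothalamus pools above all single mice, and only Sst had both below. Such placements were common over all genes, with the shares given below. Ghrh read 7.24 and 7.37 in the control and stressed pools, against 5.57 to 6.23 in the 4 single mice, a mean excess of 1.39. Its range over the 6 arrays, 1.80, was larger than that of 98.2% of genes. Both pools lay above all single mice for 21% of all genes. Hcrt, the orexin gene, read 9.79 to 9.88 in the pools against 8.01 to 8.32, and Gal, the galanin gene, 10.44 to 10.50 against 8.43 to 9.09. Hcrt and Gal were picked after their values were seen. Of 10 measured genes of other hypothalamic neurons, 2 were highest of the 6 hypothalamus arrays in the control pool and 2 in the stressed pool. The shares of all genes were 18.7% and 15.1%. Sst read 11.60 and 11.42 in the pools, below the 11.65 to 12.14 of single mice, as did 15.7% of all genes. A pool differs from a single mouse in the number of mice and in their oocyte number, and the stressed pool also carried ovarian transcripts. These and any other differences of the pools cannot be told apart here.

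Between the ovulation extremes, no gene passed in hypothalamus (0%; 19.3% at an unadjusted p under 0.05 in a fit with class and treatment, 2 residual degrees of freedom). Ghrh was higher in high than in low mice by 0.42 ± 0.18 (SE; limma, adjusted p = 0.260), in both treatments. Slc18a2 was lower in high mice by -0.60 ± 0.25 (adjusted p = 0.251), also in both treatments. The other 5 differences ran from -0.17 for Slc6a3 to 0.21 for Trh.

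The receptors through which these factors act were measured on the same arrays. Ghrhr, the receptor for GHRH on somatotropes, was lower in hypothalamus than in pituitary by -5.54 ± 0.14 (limma, adjusted p = 1.63e-15), and Drd2, the dopamine D2 receptor, by -2.29 ± 0.15 (adjusted p = 7.04e-10). Sstr3 was also lower, by -0.40 ± 0.15. Of 14 receptor genes, 6 were called higher in hypothalamus, among them Sstr2 by 1.76 ± 0.21 and Drd1 by 1.09 ± 0.15, and 3 lower, against 19.6% and 19.9% of all genes. Trhr, the TRH receptor, did not pass (0.58 ± 0.27, adjusted p = 0.0934). Under stress in pituitary 9 of the 14 were higher and 5 lower (median 0.14 against -0.04 over all genes), and 0 passed. In hypothalamus 6 were higher and 8 lower (median -0.03), and 0 passed, with Sstr5 at -0.45 and Drd4 at 0.22.

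The pituitary hormones under this control gave no call. Tshb, Gh, Prl and Cga differed under stress by -0.03 to 0.04 in pituitary. Gh and Prl read 13.15 to 13.66 there, at the top of the range of these arrays (13.66), where a difference may not be measurable. On the hypothalamus arrays Prl read 9.26 in the control low mouse, 8.68 in the stressed high mouse and 5.53 to 7.69 in the other 4.

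Precursor processing and dopamine metabolism genes gave no call under stress either. Of 11 measured genes for cutting, amidating and degrading peptides, 4 were higher and 7 lower in hypothalamus (median -0.03), and 0 passed. Cort, the cortistatin gene, differed by -0.37 and Scg5, a chaperone of prohormone convertase 2, by 0.25. Of 11 measured genes for the cofactor tetrahydrobiopterin and for dopamine breakdown, 7 were higher and 4 lower (median 0.06), and 0 passed. Qdpr, which regenerates the cofactor, differed by 0.12, and Maob, a monoamine oxidase, by -0.15. Of these 11, 5 were called higher in hypothalamus than in pituitary and 2 lower, against 19.6% and 19.9% of all genes. Among those higher were Maob by 1.90 ± 0.22, Qdpr by 1.36 ± 0.17 and Maoa by 1.04 ± 0.17. Slc18a1 was lower, by -1.59 ± 0.18.

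Cell markers that could accompany the peptide genes gave no call under stress in hypothalamus. Interneuron genes were higher for 4 of 7 and lower for 3 (median 0.0048; Pvalb -0.49), glial genes higher for 2 of 7 and lower for 5 (median -0.19; Mog -0.25), and choroid plexus genes higher for 3 of 6 (median -0.08; Clic6 -0.31). Other hypothalamic neuron genes were higher for 7 of 10 (median 0.03; Pomc -0.48, Pmch 0.26), and genes of fast transmitters for 3 of 5 (median 0.03; Slc17a8 0.28). Ovarian genes were higher for 8 of 8 (median 0.40), with a mean log2 level of 6.39 in the stressed pool against 4.81 to 5.27 in the other 5 arrays.

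By Pearson correlation over the 18 arrays, among the 10539 or 10540 genes with a named symbol at or above the median level, the genes most like Trh were Gabbr1 (r = 0.993) and Cnnm1 (0.992). For Sst they were Mobp (0.995) and Ntsr2 (0.992), for Ghrh Hcrt (0.957) and Otp (0.948), for Th Trh (0.987) and Kcnj10 (0.983), and for Ddc Cacnb4 (0.976) and Tagln3 (0.975). Slc6a3 had weaker matches in Nanos1 (0.890) and Xk (0.882), and Slc18a2 in Synm (0.934) and Scd1 (0.928). The arrays share tissue and mouse, so these values describe mainly the contrast of tissues. Over the 6 hypothalamus arrays alone, the 2 nearest genes were Htra3 and Lgals3bp for Trh, Tufm and Idnk for Ghrh, Fcer1g and Clasrp for Sst, Lgals9 and Neurog2 for Th, Rgs9 and Asl for Ddc, Nek3 and Ints2 for Slc6a3, and Steap2 and Slc7a3 for Slc18a2 (r = 0.953 to 0.997). They are the highest values among 10506 genes over 6 arrays and are given as a description.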

How the data were processed

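The authors deposited 1 log2 signal for each of 41345 transcript clusters and 18 arrays, made with Transcriptome Analysis Console per the submitters' processing notes. Version, background correction and normalization are not given in the sources used here, and base 2 was taken from their range (highest 13.66). Of these clusters, 23521 named exactly 1 gene by the platform annotation. The cluster with the highest mean over 18 arrays stood for a gene, which gave 22180 genes, with no filter. The annotation's assembly is not named, so coordinates belong only to the RefSeq promoter windows.

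Stress was compared with control within each tissue in limma 3.58.1 under R 4.3.3 (lmFit, eBayes, 4 residual degrees of freedom). Tissues and interactions were fitted on 18 arrays with mouse or pool as a random block (correlation 0.270). Adjustment was Benjamini-Hochberg over all genes, two-sided, with a threshold of 0.05. The fit was tested on simulated data.

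The 7 genes and the lists were chosen with earlier results of these data known. The text names these genes, up to 4 genes of each list by smallest unadjusted p for stress in hypothalamus (fewer where a list is only counted), receptors that differ between hypothalamus and pituitary, and the 2 genes most correlated with each member. Other genes were picked after their values were seen (Calb2, Npy, Trhde, Cyp11a1, Star, Hcrt and Gal by level, Tph2, Pitx3, Maoa, Trhr, Sstr2, Drd1, Lhx2, Emx1).

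Deviations from group means correlated at 0.359 to 0.727 for the 9 same-class pairs of control and stress arrays and at -0.521 to 0.321 for the 18 others, so class was also used as a block. Alternatives were scaling, a filter, the cluster rule, the prior, leaving out pools and leaving out each array. Slides and scan dates were not used here. The number of arrays limits the precision.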

Additional observations from a re-analysis of the deposited data

How the results depend on the processing

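With ovulation class as a replicate block, 0 of the 7 genes passed for stress in any tissue, 7 and 6 passed for hypothalamus against pituitary and ovary, and no call changed. The counts of called members held under every alternative, leaving out each array included, except for the interactions. There, 1 gene (Slc6a3) passed in place of 0 without the pool arrays, against pituitary and against ovary, and 0 to 1 passed when single arrays were left out, with 1 only without the control hypothalamus pool. Slc18a2 turned sign without the pool arrays in pituitary (stress minus control, -0.19) and with centred arrays in hypothalamus minus ovary (-0.039). Leaving out single arrays turned the sign of small stress differences. In hypothalamus the ranges were -0.010 to 0.23 for Trh, -0.64 to 0.28 for Ghrh and -0.059 to 0.53 for Slc18a2. In pituitary they were -0.080 to 0.074 for Ghrh and -0.33 to 0.58 for Slc18a2. In ovary they were -0.18 to 0.18 for Ghrh, -0.17 to 0.23 for Sst, -0.29 to 0.073 for Ddc and -0.24 to 0.39 for Slc18a2, and for hypothalamus minus ovary Slc18a2 ran from -0.15 to 0.16. Slc6a3 stayed positive in hypothalamus (0.87 to 2.10), as did Th (0.33 to 0.75) and Ddc (0.17 to 0.37), and Sst stayed negative (-0.40 to -0.12). In pituitary Trh ran from 0.026 to 1.15 and Th from 0.088 to 1.18, and in ovary Slc6a3 from -0.45 to -0.13. Genes read near their level in other tissues, such as Slc6a3 in pituitary, could hide a change.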
